A study of Mus musculus with 18 samples.

Results

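The proteasome genes of NMuMG cells were examined together with Nfe2l1, the transcription factor best known for controlling them, after treatment with Halofuginone (HF). Genes were taken by name, as every gene on the array whose symbol starts with Psma, Psmb, Psmc, Psmd, Psme, Psmf or Psmg and a number, with Nfe2l1 added. This gave 46 of the 16675 genes measured. Of these, 44 encode proteasome subunits, assembly chaperones, activators or an inhibitor. The other two are Nfe2l1 itself and Psmc3ip, a factor of meiotic recombination that shares only the start of its symbol with the subunits. Psma5, Psmb3, Psmb11 and Psmg4 were in the lists drawn up for this family and have no named probe among the values used here.

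NMuMG is a line of epithelial cells from normal mouse mammary gland. The cells were plated fresh in complete medium and then received 10 nM HF or 10 nM MAZ1310, an HF derivative that served as the inactive control, for 8 hr. Both compounds were added in acidified DMSO. A single cell line was used, and cells with DMSO alone were not analysed here. Each treatment was given to 3 cultures, and each culture was hybridized to 3 technical arrays of 1 color, which makes 18 arrays. The deposited values are quantile-normalized intensities, given here as log2 intensity averaged over the technical arrays of a culture, so that n = 3 for each treatment.

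Keratins Krt7, Krt8, Krt18 and Krt19 and E-cadherin (Cdh1), which mark glandular epithelium, had group means of log2 intensity from 13.18 to 16.00. The other 4 epithelial markers were lower. The claudin Cldn4 read 10.83 in HF and 10.66 in MAZ1310, Cldn7 read 7.96 and 7.74, Cldn3 read 7.03 and 7.18, and the adhesion gene Tacstd1 (Epcam) read 6.07 and 5.94. The 7 fibroblast markers stayed between 5.71 and 6.95, but among 12 markers of blood, endothelium and fat the higher group mean reached 8.91 (Cd3e), so that Cldn3, Cldn7 and Tacstd1 were not above all markers of other tissues. None of the 28 measured markers of epithelium, fibroblasts, blood, endothelium or fat passed the test between treatments (limma, adjusted p), although 2 of them had an unadjusted p under 0.05, Krt19 and the macrophage gene Cd68. Krt8 and Krt18 read at or just under the highest value of the arrays, where a change could hardly be seen.

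The proteasome is the large protease that degrades proteins tagged with ubiquitin. Its core particle is a barrel of alpha and beta subunits, with the cutting sites on 3 of the beta subunits. A regulatory particle on the end of the barrel holds a ring of ATPases that unfold the substrate and non-ATPase subunits that bind and remove ubiquitin. Nfe2l1 is made in the membrane of the endoplasmic reticulum and is normally pulled out by the ATPase Vcp (p97) and degraded. In mouse and human cells with too little proteasome activity, the protein that is pulled out escapes degradation. It is deglycosylated by Ngly1, clipped by Ddi2 and carried to the nucleus. There it pairs with a small Maf protein and binds antioxidant response elements upstream of proteasome genes. The comparison asked whether a higher Nfe2l1 transcript was accompanied by higher transcripts of the subunits. Only RNA was measured, at a single time.

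The core of the antioxidant response element, TGACNNNGC, was searched on both strands in the windows from 250 bases before to 50 bases after the gene starts of RefSeq (build GRCm38.p6). Of the 46 genes, 38 matched this table by symbol, with 45 windows in all. A match was found in 6 windows (13.3%), against 12.4% of the 32851 windows of all genes. The sites are shown as a description, with the match in capitals. Their share was close to that of all genes, and binding of Nfe2l1 to them was not measured.
Psmb5: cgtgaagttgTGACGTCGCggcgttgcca
Psmb6: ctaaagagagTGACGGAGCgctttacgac
Psmc6: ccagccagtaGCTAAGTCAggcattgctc
Psmd9: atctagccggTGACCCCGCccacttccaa
Psmd12: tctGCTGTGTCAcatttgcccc
Psme4: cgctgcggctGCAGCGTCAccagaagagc

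These stretches lie at chr14:54618024-54618052 (minus strand) for Psmb5, chr11:70525338-70525366 (plus strand) for Psmb6, chr14:45329587-45329615 (plus strand) for Psmc6, chr5:123228149-123228177 (plus strand) for Psmd9, chr11:107479278-107479299 (plus strand) for Psmd12 and chr11:30771758-30771786 (plus strand) for Psme4. The first base of the match stood at -47, -9, -227, -31, -247 and -7 from the gene start in the same order. Those of Psmc6, Psmd12 and Psme4 read as TGACNNNGC on the opposite strand. None of the 5 windows of Nfe2l1 held a match, which says only that these letters are not in these windows. Among these 6 genes the log2 fold change was above 0 for Psmc6 (0.57) and below 0 for Psmb5 (-0.18), Psmb6 (-0.38), Psmd9 (-0.41), Psmd12 (-0.08) and Psme4 (-0.21), and none passed the test. The cultures were separated for Psmc6, with HF above, and for Psmd9, with HF below.

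The transcript of Nfe2l1 rose in HF, and no proteasome gene was called higher with it, although Psmc6 and Psmd8 had intervals above 0. HF cultures held 2.16-fold more of it than MAZ1310 cultures did. Of all 46 members 2 passed the test, where 3.02% of all genes did. The 2 include Nfe2l1, which was added by name with earlier results of these data known, so this count is a description. Among the 44 proteasome genes, 0 were called higher and 1, the regulatory particle subunit Psmd13, was called lower (limma, adjusted p under 0.05). Over all 16675 genes, 1.45% were called higher and 1.57% lower. At an unadjusted p under 0.05, 2 of the 44 were higher and 14 were lower, against 7.94% and 8.53% of all genes. A log2 fold change below 0 was seen in 35 of the 44, with a median of -0.20, whereas 50.4% of all genes were below 0 with a median of -0.00197. Most members are bright on the array. Above the 90th percentile of brightness lay 1668 genes, of which 53.1% were below 0 with a median of -0.04, and 23 of the 28 members there were below 0.

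**Figure D1:**
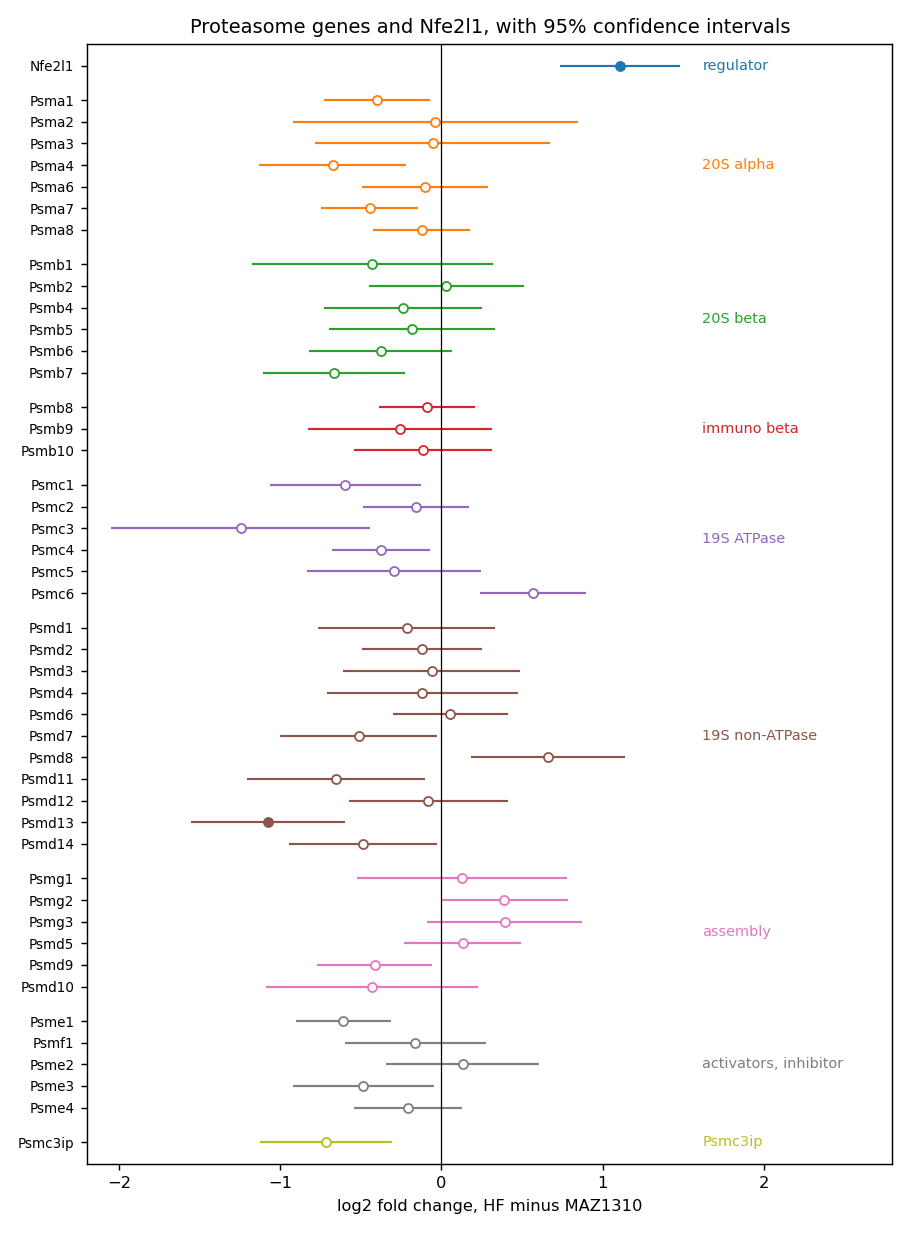
Log2 fold change of each gene (HF minus MAZ1310, x axis) with its 95% confidence interval, by the role of the protein (20S is the core particle and 19S the regulatory particle), where filled points passed the test and open points did not. Nfe2l1 stands at 1.11 and all but 9 of the 44 proteasome genes stand below 0, with Psmd13 (-1.07) the filled point among them.

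Nfe2l1 was read by 1 probe, so its change could not be compared between probes. The 3 HF cultures gave log2 intensities of 12.47, 12.11 and 12.52 for Nfe2l1, and the 3 MAZ1310 cultures gave 11.11, 11.29 and 11.35. The groups did not overlap, and neither did their arrays, whose lowest HF value was 12.10 and whose highest MAZ1310 value was 11.73. The means were 12.36 ± 0.22 (SD, n = 3) and 11.25 ± 0.13 (SD, n = 3), which puts HF 1.11 higher on the log2 scale (limma adjusted p = 0.0217) with a standard error (SE) of 0.16 and a 95% confidence interval (CI) from 0.74 to 1.48. The call held without MAZ1310 replicate 1 (adjusted p = 0.0432) and ended without any other single culture, where the log2 fold change was 1.03 to 1.24 and the adjusted p in limma was 0.0539 to 0.0904. With fewer cultures the test is less sensitive, and why the call ended was not tested.

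The 95% confidence intervals bound how far the proteasome genes could have risen. They are not adjusted for the number of genes. The upper bound was under 1.5-fold for 36 of the 44 genes and under 2-fold for 43, with Psmd8 the exception. For 38 of the 44, the upper bound lay below the lower bound of Nfe2l1. The 44 include Psmc4, Psma8, Psmb8, Psmb9, Psme2 and Psmd2, whose signal was below the highest of the markers of blood, endothelium and fat. For a probe at that level, a narrow interval does not bound the transcript.

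The alpha ring forms the outer wall of the barrel and its gate. All 7 of its measured genes had a log2 fold change below 0, from -0.68 to -0.04, and 0 of 7 passed the test. Psma7 had the smallest p of them. Its HF cultures read 13.65, 13.69 and 13.67 and its MAZ1310 cultures read 14.23, 13.98 and 14.15. The cultures were separated, at -0.45 (SE 0.13, limma adjusted p = 0.124). Psma4 had the largest difference in the ring, with 13.23, 13.27 and 13.09 in HF against 13.48, 14.16 and 13.98 in MAZ1310. This separated the cultures too, at -0.68 (SE 0.19, limma adjusted p = 0.126). Psma1 was the third gene of the ring whose cultures did not overlap (-0.40). In comparison, all HF cultures lay below all MAZ1310 cultures for 9.85% of all genes, and above them for 11.2%.

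Psma2, Psma3 and Psma6 overlapped between treatments, with log2 fold changes of -0.04, -0.05 and -0.10. The arrays of Psma2 were widely spread, from 13.08 to 15.65 in HF and from 13.63 to 16.00 in MAZ1310, and its interval of -0.92 to 0.85 leaves room for a change in either direction. Psma3 was measured by 3 probes, which gave -0.15, -0.13 and 0.02. Psma8, an alpha subunit known from testis, had a highest group mean of 6.11, below the median of 6.69 for the 12 markers of blood, endothelium and fat that stand in here for genes the line should not use. Psmc4 and Psmb8 were also below this median, and Psmb9 (6.72), Psme2 (6.99) and Psmd2 (8.39) were below the highest of these markers (8.91), which limits what could be detected for these 6 genes.

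The beta ring carries the cutting sites. Of 6 constitutive beta genes, 5 were below 0 (range -0.67 to 0.03) and none passed the test. Psmb7, the subunit with the trypsin-like site, read 10.89, 11.50 and 11.43 in HF and 12.05, 11.91 and 11.85 in MAZ1310. It was the only gene of this group whose cultures were separated (-0.67, SE 0.19, limma adjusted p = 0.12). Psmb5 and Psmb6, the subunits with the chymotrypsin-like and the caspase-like site, both hold one of the sites shown above and overlapped between treatments. Their log2 fold changes were -0.18 (95% CI -0.70 to 0.33) and -0.38 (-0.82 to 0.07). Psmb2 (0.03), Psmb4 (-0.24) and Psmb1 (-0.43) are structural beta subunits and overlapped as well.

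Psmb8, Psmb9 and Psmb10 replace the cutting subunits in the immunoproteasome, the form that interferon induces for antigen processing. Their log2 fold changes were -0.09, -0.26 and -0.11, and all 3 overlapped between treatments. Psmb9 read 6.13, 6.80 and 6.46 in HF and 6.33, 7.06 and 6.78 in MAZ1310 (SE 0.24, limma adjusted p = 0.75). The group means of Psmb8 (6.28 and 6.37) were below the median of the markers of other tissues, which limits how far a lower level could be detected there. Psmb10 was read by 2 probes at 0.01 and -0.24, and the 2 probes of Psmb8 also differed in sign (-0.27 and 0.09).

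The ATPase ring of the regulatory particle ranged from -1.25 to 0.57. Of its 6 genes, 5 were below 0 and 1 above, and 0 passed the test. Psmc3 had the lowest log2 fold change of all members, -1.25 (SE 0.34, limma adjusted p = 0.111). Its HF cultures read 12.25, 12.00 and 11.67 and its MAZ1310 cultures read 13.94, 12.56 and 13.17. The groups were separated, but the MAZ1310 cultures spread over more than a unit, with replicate 1 highest and replicate 2 close to the HF cultures. Of the 9 HF arrays, 8 lay below every MAZ1310 array.

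Psmc6 went the other way. It read 11.35, 11.48 and 11.22 in HF against 10.79, 10.64 and 10.91 in MAZ1310, with separated cultures. Its log2 fold change of 0.57 (SE 0.14, limma adjusted p = 0.0832) was shared by its 2 probes, at 0.55 and 0.59. In 1 of 16 alternatives, the 18 arrays with the culture as a random block, Psmc6 was called (limma adjusted p = 0.0103). That setting called 1128 genes in all, against 504 in the fit reported. In the other alternatives the adjusted p of this gene in limma was up to 0.254. Psmc6 also holds one of the element cores, far upstream in its window. Psmc1 (-0.60) and Psmc4 (-0.37) had HF cultures below all MAZ1310 cultures, whereas Psmc2 (-0.16) and Psmc5 (-0.30) overlapped. The probe of Psmc4 read 5.63 and 6.01, which is again below the median of the markers of other tissues.

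Psmd13, a structural subunit of the lid of the regulatory particle, was the only proteasome gene that passed the test. It too was measured by only 1 probe. It read 11.85, 12.41 and 11.98 in HF and 12.99, 13.01 and 13.46 in MAZ1310, and 8 of 9 HF arrays lay below the lowest MAZ1310 array. The means were 12.08 ± 0.29 (SD, n = 3) and 13.15 ± 0.26 (SD, n = 3). The transcript was thus 2.11-fold lower, at -1.07 (SE 0.20, 95% CI -1.55 to -0.60, limma adjusted p = 0.0431). The call ended when any 1 of the 6 cultures was left out (log2 fold change -1.24 to -0.92, limma adjusted p from 0.0589 to 0.121), and with the median in place of the mean over technical arrays (adjusted p = 0.0569). HF replicates 1 and 3 each had technical arrays more than 1 log2 unit apart (1.24 and 1.45).

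The window at the start of Psmd13 is shown because it is the gene that fell and because it was the only 1 of the 45 windows with TGATGNAA, the core of the element bound by Atf4 and C/EBP factors, on either strand. This core was present in 3.97% of all windows. The window spans chr7:140882144-140882443 (plus strand, GRCm38.p6, RefSeq) and the match, in capitals, begins at -247 on the opposite strand.
Psmd13: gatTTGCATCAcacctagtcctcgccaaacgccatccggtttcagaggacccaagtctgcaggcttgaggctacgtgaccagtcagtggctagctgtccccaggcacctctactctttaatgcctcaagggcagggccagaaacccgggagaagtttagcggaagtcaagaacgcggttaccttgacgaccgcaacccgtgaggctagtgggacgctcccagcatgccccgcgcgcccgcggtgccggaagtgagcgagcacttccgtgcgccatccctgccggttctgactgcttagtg

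The other non-ATPase subunits were mixed. Of the 11 in this group, 9 were below 0, and those with HF cultures below all MAZ1310 cultures were Psmd13, Psmd11 (-0.65), Psmd7 (-0.51) and Psmd14 (-0.49). Psmd14 is the enzyme that cuts ubiquitin off the substrate, and Psmd7 is its inactive partner. Psmd8, a lid subunit, had the largest positive log2 fold change of the 44 genes, 0.66 (SE 0.20, limma adjusted p = 0.152). It read 12.99, 12.86 and 13.31 in HF against 12.06, 12.70 and 12.41 in MAZ1310, which separated the cultures, although only 3 of 9 HF arrays lay above every MAZ1310 array. Psmd1 and Psmd2, the large scaffold subunits, had -0.21 and -0.12, and the ubiquitin receptor Psmd4 had -0.12. Psmd12, with an element core at the far end of its window, had -0.08 (95% CI -0.58 to 0.41).

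**Figure D2:**
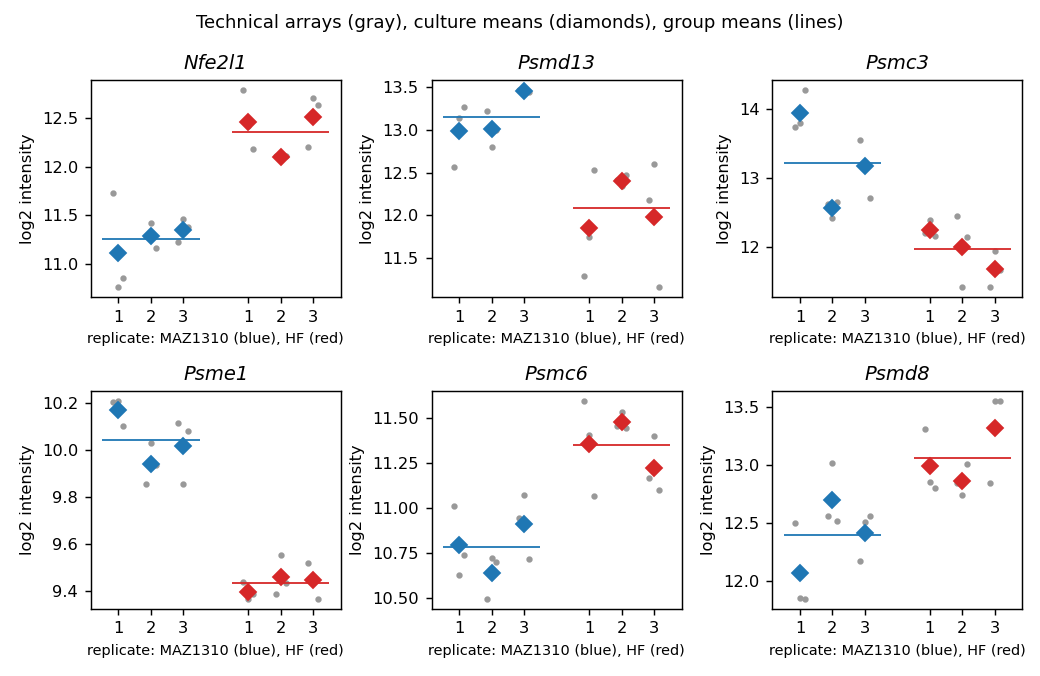
Log2 intensity (y axis) of 6 members on each technical array (gray), with culture means (diamonds) and group means (lines) for MAZ1310 (blue) and HF (red) replicates. The arrays of Nfe2l1 and of Psme1 do not overlap between treatments, whereas Psmc3 shows its wide spread among MAZ1310 cultures and Psmd8 has arrays of both treatments at the same level.

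Genes for assembly of the proteasome were the group least often below 0. Of 6 assembly chaperones, 4 were above 0 and 2 below, with a median of 0.13 and none past the test. Psmg1, Psmg2 and Psmg3, which build the alpha ring, had 0.13, 0.39 and 0.39. The cultures were separated for Psmg2 and overlapped for the other two. Psmd5 (0.13), Psmd9 and Psmd10 help to assemble the ATPase ring. Psmd9, which holds an element core close to its start, read 8.44, 8.81 and 8.64 in HF and 8.90, 9.04 and 9.19 in MAZ1310 (-0.41, SE 0.15, limma adjusted p = 0.227). Psmd10 (gankyrin) differed as much, at -0.43, but its cultures overlapped, with 10.86, 10.76 and 10.17 against 11.41, 11.16 and 10.51 (SE 0.28, limma adjusted p = 0.57). The difference between these groups of genes was not tested.

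Psme1, a subunit of the activator cap that goes with the immunoproteasome, came closest to the threshold without passing it. It read 9.39, 9.46 and 9.45 in HF and 10.17, 9.94 and 10.02 in MAZ1310, and all 9 HF arrays lay below all 9 MAZ1310 arrays. Its log2 fold change was -0.61 (SE 0.13, limma adjusted p = 0.0536), with -0.68 and -0.54 in its 2 probes. Its partner in the same cap, Psme2, had 0.13 with overlapping cultures (95% CI -0.34 to 0.61), at a level below the highest marker of other tissues. The nuclear activator Psme3 had -0.48 with separated cultures, the large activator Psme4 had -0.21 and the inhibitor Psmf1 had -0.16. Psmc3ip, the recombination factor, read 10.39, 10.68 and 10.71 in HF and 11.05, 11.33 and 11.55 in MAZ1310 (-0.72, SE 0.18, limma adjusted p = 0.0819).

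Across the 44 proteasome genes, the lowest culture was an HF culture for 29 and the highest was a MAZ1310 culture for 33. HF replicate 1 was the lowest for 18 genes, HF replicate 3 for 11 and HF replicate 2 for none. MAZ1310 replicate 1 was the highest for 13 genes and also the lowest for 9. The median deviation from the mean of each gene was -0.22, -0.04 and -0.12 in HF replicates 1, 2 and 3, and 0.10, 0.12 and 0.18 in MAZ1310 replicates 1, 2 and 3. The genes are measured in the same cultures and are not replicates of the treatment, so these figures are a description. The same counts were not made over all genes, so they are not read as particular to proteasome genes.

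**Figure D3:**
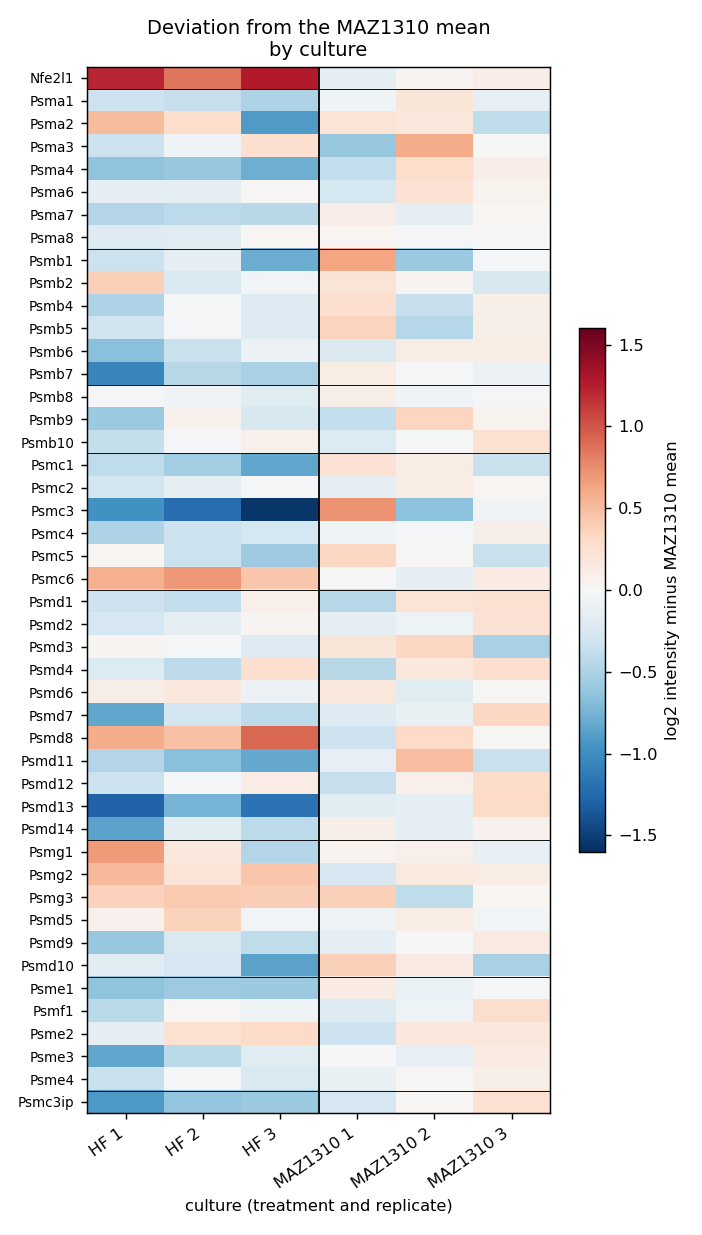
Log2 intensity of each gene (rows, by role) in each culture (columns) minus its mean in MAZ1310, where blue is lower and red is higher. Nfe2l1, Psmc6 and Psmd8 are red in all 3 HF cultures, Psmd13 and Psmc3 are blue in all 3, and HF replicate 2 is paler than HF replicate 1 for many subunits.

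Of 9 measured factors for processing and turnover of Nfe2l1, 0 were called higher and 2 lower, where 1.45% and 1.57% of all genes were. Both calls depended on the cultures used, as given below, and each of the 2 genes was read by 1 probe. Vcp, the ATPase that pulls Nfe2l1 and other proteins out of the membrane and hands them to the proteasome, read 13.66, 13.60 and 13.90 in HF and 14.80, 15.22 and 15.12 in MAZ1310. The cultures were far apart. The log2 fold change of Vcp was -1.33 (SE 0.16, 95% CI -1.71 to -0.95, limma adjusted p = 0.0139). Its cofactor Nploc4, which binds the ubiquitin on the substrate, read 10.06, 10.14 and 9.94 in HF and 10.67, 11.17 and 10.99 in MAZ1310. Nploc4 stood at -0.90 (SE 0.16, limma adjusted p = 0.0387), whereas Ufd1l, its partner in this cofactor, had 0.00 (95% CI -0.40 to 0.40).

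Processing and turnover of Nfe2l1 were read by 9 genes, of which 7 did not pass the test in either direction, and the median over the 9 was -0.27. Sel1l, part of the ligase complex that marks proteins of the endoplasmic reticulum for destruction, read 8.97, 8.75 and 8.87 in HF and 9.04, 9.75 and 9.49 in MAZ1310 (-0.56, limma adjusted p = 0.208). Btrc, which helps to mark Nfe2l1 for destruction, had separated cultures as well (-0.31, limma adjusted p = 0.243). Sel1l's ligase Syvn1 had -0.27 and the channel protein Derl1 had -0.23, both with overlapping cultures. Ngly1, the deglycosylating enzyme, had 0.39 with a wide interval of -0.40 to 1.19. Ddi2 was on the list and has no named probe here. Vcp was no longer called when HF replicate 1, HF replicate 2, MAZ1310 replicate 2 or MAZ1310 replicate 3 was left out (limma adjusted p from 0.0564 to 0.0771), and Nploc4 when any 1 culture other than MAZ1310 replicate 1 was (adjusted p from 0.102 to 0.122). The call of Nploc4 also ended with the median over technical arrays (limma adjusted p = 0.159), with the culture as a random block (0.119) and with a trended robust eBayes (0.0514).

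Of the 9 measured genes for relatives and partners of Nfe2l1, 0 passed the test. Nfe2l2 (Nrf2), the relative that binds the same element under oxidative stress, had -0.04 (95% CI -0.52 to 0.44). Nfe2l3 (0.11) and Nfe2 (0.12) had group means below the median of the markers of other tissues. The small Maf genes, whose proteins pair with Nfe2l1 on DNA, had the highest values of this list, with Mafk at 0.87, Mafg at 0.57 and Maff at 0.46. Mafk read 9.89, 10.27 and 10.74 in HF against 8.82, 9.57 and 9.90 in MAZ1310. HF replicate 1 lay just below MAZ1310 replicate 3, and the difference did not pass (SE 0.32, limma adjusted p = 0.234). Keap1, which holds Nfe2l2 in check, had -0.62 with overlapping cultures.

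**Figure D4:**
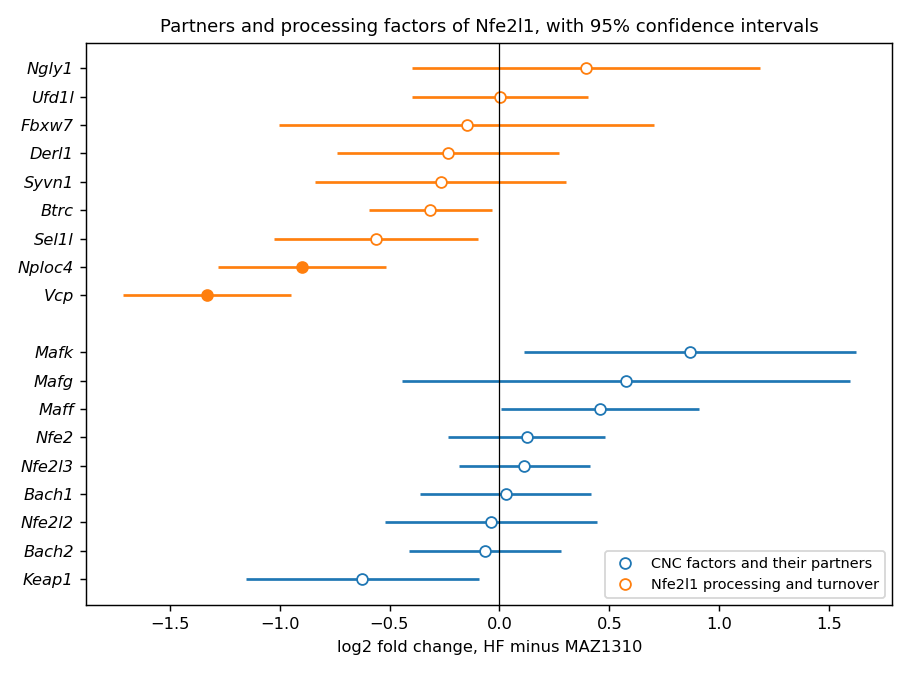
Log2 fold change (HF minus MAZ1310, x axis) with its 95% CI for the factors that process Nfe2l1 (orange) and its relatives and partners (blue), where filled points passed the test. Vcp (-1.33) and Nploc4 (-0.90) are the filled points, and the 3 small Maf genes lie above 0 with open points.

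Genes for proteins that work with the proteasome under other names ranged from -0.30 to 0.68. Of 15 measured, none passed the test, 9 were above 0 and 6 below, and the median was 0.10. Zfand2a, a stress-induced protein that binds the proteasome, had the largest difference, with 12.35, 12.58 and 12.76 in HF and 11.51, 11.98 and 12.16 in MAZ1310 (0.68, SE 0.20, limma adjusted p = 0.141). The cultures were separated. Zfand2a was called in 2 of 16 alternatives, with adjusted p values in limma of 0.0208 and 0.0191. These took the culture as a random block and the replicate number as a block. In the other alternatives its adjusted p in limma was up to 0.321. Pomp, the maturation factor of the core particle, had -0.30 with a wide interval of -1.31 to 0.72. The deubiquitinases Usp14 and Uchl5 had -0.01 and 0.22, and Shfm1 (Sem1), the smallest lid subunit, had -0.14. Uba6 was the 1 gene of the ubiquitin list with a probe here, with 9.99, 10.59 and 10.68 in HF and 9.93, 10.25 and 10.15 in MAZ1310 (0.31, limma adjusted p = 0.585).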

How the data were processed

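RNA of NMuMG cells was hybridized to 1-color Mouse Whole Genome OneArrays. The deposited values are linear intensities: the authors kept the 21973 probes with usable, non-negative values throughout and quantile-normalized them. Scanner and background correction are not given in the sources used here. GEO's platform annotation gave 21020 probes 1 symbol each, and the other 953, without a single symbol, were not tested. The log2 intensities were summarized by the median over probes (46 members, 54 probes) and averaged over the technical arrays of a culture, whose consensus correlation was 0.289. The 16675 genes were tested in limma 3.58.1 (R 4.3.3) by a two-sided moderated test of treatment, with no other term, and called at a Benjamini-Hochberg adjusted p under 0.05 over all genes, and the scripts were tested on simulated data. Precision is limited by 3 cultures per treatment. No detection calls were at hand and no probe was left out as dim.

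The members and gene lists were chosen with earlier results of these data known. Genes given with all cultures are Nfe2l1, each called gene and, per group, the member with the smallest p and the largest change among those not called. In each related list these are the called genes and the largest change not called. The split of genes by brightness, Btrc, the cultures that were lowest or highest, and the whole window of Psmd13 were added after values were seen. Alternatives covered array scaling, dim probes, the summaries, the replicate number, eBayes, Storey q-values and each culture left out.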

Additional observations from a re-analysis of the deposited data

How the results depend on the processing

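All 20 genes named by the rule kept their direction in each of the 16 alternatives that gave a value. Much of this was fixed in advance. The random block, the replicate block, the trended robust eBayes and the Storey q-values leave the log2 fold change as it was. Leaving out 1 culture cannot reverse a gene whose cultures are separated. Of the 16 alternatives, Nfe2l1 was called in 11 and Psmd13 in 9. When single cultures were left out, the log2 fold change of Nfe2l1 ranged from 1.03 to 1.24. The members called higher ranged from 0 to 1, against 0.198% to 0.81% of all genes. The members called lower also ranged from 0 to 1, against 0.09% to 1.22% of all genes. The 1 lower gene, without MAZ1310 replicate 1, was Psma4 in place of Psmd13. The number of members called lower was 0 with the median over technical arrays, where 1.13% of all genes were called lower. It was 2 with Storey q-values (Psmd13 and Psme1), against 1.9% of all genes. It was 3 with 18 arrays and the culture as a random block (Psmc3, Psmd13 and Psme1), against 3.08% of all genes. It was 5 with the replicate number as a block (Psmc1, Psmc3, Psmc3ip, Psmd13 and Psme1), against 5.4% of all genes. The random block gave 2 members called higher, Nfe2l1 and Psmc6, against 3.69% of all genes. Of the related genes, Zfand2a was called with the random block (limma adjusted p = 0.0208) and the replicate block (0.0191), Irf1 with the random block (0.0126) and Mafk with the replicate block (0.0130). All genes called, 504 in the fit reported, were 1128 with the random block, 1792 with the replicate block, 322 with the median over technical arrays and 48 to 339 without single cultures. The labels give both treatments replicate numbers 1 to 3. Nothing says that a number marks a shared batch, so the numbers were not taken as pairs in the fit reported. The correlation of deviations between same-numbered cultures was 0.67, 0.08 and 0.69. It was -0.62 between HF replicate 1 and MAZ1310 replicate 3, and -0.69 between HF replicate 3 and MAZ1310 replicate 1. The deviations were taken from the mean of the 3 cultures of a treatment, which ties them to each other. These correlations are therefore not separate observations. Whether a number marks a shared batch was not tested. MAZ1310 replicate 2 correlated best with HF replicate 3 (0.27). The median log2 fold change over members ranged from -0.25 to -0.14 without single cultures. Fewer cultures make the test less sensitive, and the cause of these changes was not tested. The signal of Psmc4, Psma8 and Psmb8 was below the median of 12 markers of other tissues, and that of Psmb9, Psme2 and Psmd2 below the highest, which limits what could be detected.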

Other observations

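Antigen processing, the pathway that the immunoproteasome serves, was read by 8 genes beside the proteasome itself. None passed the test, 6 were below 0, 2 above, and the median log2 fold change was -0.11. Irf1, the interferon-induced factor that drives immunoproteasome genes, read 9.16, 9.47 and 9.20 in HF and 10.23, 9.74 and 9.91 in MAZ1310, which separated the cultures (-0.68, standard error 0.17, limma adjusted p = 0.0887). It was called in 1 of 16 alternatives, the 18 arrays with the culture as a random block (limma adjusted p = 0.0126). In the other alternatives its adjusted p in limma was up to 0.21. The peptide transporter Tap1 also had separated cultures, at -0.39 (limma adjusted p = 0.309), from group means of 6.80 and 7.19. B2m, the light chain of class I molecules, had 0.30 with overlapping cultures, and Tapbp, which loads peptide onto them, had -0.35 with overlapping cultures. Whether these genes and Psme1 differ together was not tested.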
